A study of Mus musculus with 10 samples.

Results

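The thick ascending limb of Henle's loop and the distal convoluted tubule are neighbouring segments of the distal nephron, and 9 genes that are known for their work in them were followed in old mouse kidney. They were Umod, Slc12a1, Kcnj1, Egf, Ppp1r1a, Slc12a3, Pvalb, Trpm6 and Wnk1. Every probe set (a group of short probes for one transcript) whose platform annotation gave exactly 1 gene symbol equal to one of these names was taken, which gave 16 of 34958 such probe sets, for 9 of 18194 genes. Expression had been measured in whole kidney of male C57BL/6 mice aged 30 months, with 1 mouse per Affymetrix array, in 5 mice on a control diet and 5 on a calorie restricted diet. The series title calls the restriction long-term, and its strength and starting age are not stated in the labels. In whole kidney, fewer cells of a segment and less RNA per cell cannot be told apart.

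The thick limb takes up sodium, potassium and chloride without water, through the cotransporter NKCC2 encoded by Slc12a1, and so dilutes the tubule fluid and drives the concentration of the urine. The distal convoluted tubule that follows takes up sodium and chloride through the cotransporter NCC encoded by Slc12a3, the target of thiazide drugs, and sets the final magnesium content of the urine. Kinases of the WNK family act through the kinases SPAK and OSR1 to switch both cotransporters on.

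The upstream sequences of Umod, Slc12a1 and Slc12a3 are shown because these genes define the segments and are compared with each other below. Each is the 250 bases before the RefSeq start of the gene (build GRCm38.p6), read 5′ to 3′ on the strand of the gene. Umod lies at chr7:119479263-119479512 on the minus strand, Slc12a1 at chr2:125152350-125152599 on the plus strand and Slc12a3 at chr8:94328958-94329207 on the plus strand. Capitals mark matches, on either strand, to the half-site GTTAAT of the HNF1 factors, the CCAAT box (CCAAT) or the TATA box (TATAAA).
Umod: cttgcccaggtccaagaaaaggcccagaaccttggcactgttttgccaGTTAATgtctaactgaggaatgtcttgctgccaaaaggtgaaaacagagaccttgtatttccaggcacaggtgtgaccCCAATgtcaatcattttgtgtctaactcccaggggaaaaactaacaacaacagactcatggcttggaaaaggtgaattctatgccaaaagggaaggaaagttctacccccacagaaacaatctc
Slc12a1: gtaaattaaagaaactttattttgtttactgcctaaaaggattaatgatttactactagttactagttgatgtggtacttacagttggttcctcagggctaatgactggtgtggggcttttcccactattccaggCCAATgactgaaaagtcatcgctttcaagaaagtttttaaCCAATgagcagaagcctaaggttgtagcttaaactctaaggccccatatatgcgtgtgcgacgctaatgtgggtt
Slc12a3: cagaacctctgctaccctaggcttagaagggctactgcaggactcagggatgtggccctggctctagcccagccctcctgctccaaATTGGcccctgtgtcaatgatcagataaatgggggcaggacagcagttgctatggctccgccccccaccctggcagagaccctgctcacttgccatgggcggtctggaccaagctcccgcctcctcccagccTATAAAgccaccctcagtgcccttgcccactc
The HNF1 half-site was found in 6.43% of all 32851 windows of this length and, among the members, in Umod, starting 202 bases before the start. The CCAAT box was in 33.8% of windows and in those of Umod, Slc12a1, Slc12a3 and Kcnj1. The TATA box was in 12.4% of windows and, among the members, in that of Slc12a3, starting 32 bases before the start. Windows were at hand for 8 of the 9 genes, Ppp1r1a being the exception.

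The defining markers of both segments were present on every array. The lowest signal of any of the 4 thick limb markers (Umod, Slc12a1, Kcnj1 and Cldn16) was 565 and the lowest of the 4 distal convoluted tubule markers (Slc12a3, Pvalb, Trpm6 and Calb1) was 360.4, against an array median of 115 to 136. Wnk1 is expressed in many cell types, so it does not mark a segment. Skeletal muscle, the other well-known source of Pvalb, was little represented, since 6 of its 7 markers fell below the signal filter and none of the 7 exceeded 262 on any array.

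Besides the diet, 3 features differed between the groups of arrays. First, at the authors' scaling the brightest probe sets were higher in calorie restriction. The median log2 difference was near 0 over all 22519 tested probe sets (those with a mean log2 signal of at least 6.81), 0.11 over the brightest 2252 and 0.34 over the brightest 100. Over the dimmest 10% it was 0.091. After quantile normalization the last 3 were 0.0014, 0.0030 and 0.0061. That method gives every array the same distribution, so values near 0 were fixed in advance. It would also remove a real rise of the brightest transcripts. Second, the log2 ratio of 3′ to 5′ signal of Gapdh and Actb, which follows RNA length and labelling, was 1.05 ± 0.26 in control and 1.67 ± 0.46 in calorie restriction (SD, n = 5, two-sided exact permutation p = 0.0476). It was 2.21, 2.01 and 1.75 on calorie-restricted arrays 1, 2 and 3, above all controls, and 1.24 and 1.16 on arrays 4 and 5. Last, 7 of 11 markers of the proximal tubule, the bulk of the cortex, were higher in calorie restriction. Of all tested probe sets 2.93% were higher and 3.16% lower. The summed signal of the 11 was 132903 to 165174 in control and 192220 to 218775 in calorie-restricted kidney. Very bright markers weigh most in this sum, so this feature is not separate from the first. Of the 7, Fbp1 (0.37) and Miox (0.31) differed about as much as the brightest 100 probe sets, and Kap (0.74) and Slc22a6 (0.60) by more. Of other cell types, 2 of 5 markers of macrophages, 2 of 5 of fibroblasts, 2 of 3 of adipocytes and 1 of 4 of podocytes were lower, and 0 of 5 of endothelium and 0 of 3 of B lineage cells passed in limma, with 2 of each at an unadjusted p under 0.05. Of the cells that follow in the collecting duct, 0 of 6 principal cell markers (1 at an unadjusted p under 0.05) and 1 of 4 intercalated cell markers passed (limma, at the authors' scaling), the latter higher. The part of these features in the members' differences was not tested.

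None of the 9 genes passed the adjusted p threshold of 0.05 between the diets in limma, each taken by its brightest probe set, and none of their 13 tested probe sets did. At an unadjusted p under 0.05 there were 2 of 9 genes and 6 of 13 probe sets. Of all tested probe sets 6.09% passed the adjusted threshold and 26.1% had an unadjusted p under 0.05. The median log2 difference, calorie restricted minus control, was 0.080 over the 9 genes, with 7 above and 2 below 0, and -0.0052 over all tested genes. After quantile normalization 2 of the 9 genes were above and 7 below 0, so the direction of this count turns with the scaling. The 95% intervals of the 9 differences ran from -0.54 at the lowest end to 0.47 at the highest.

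**Figure D1:**
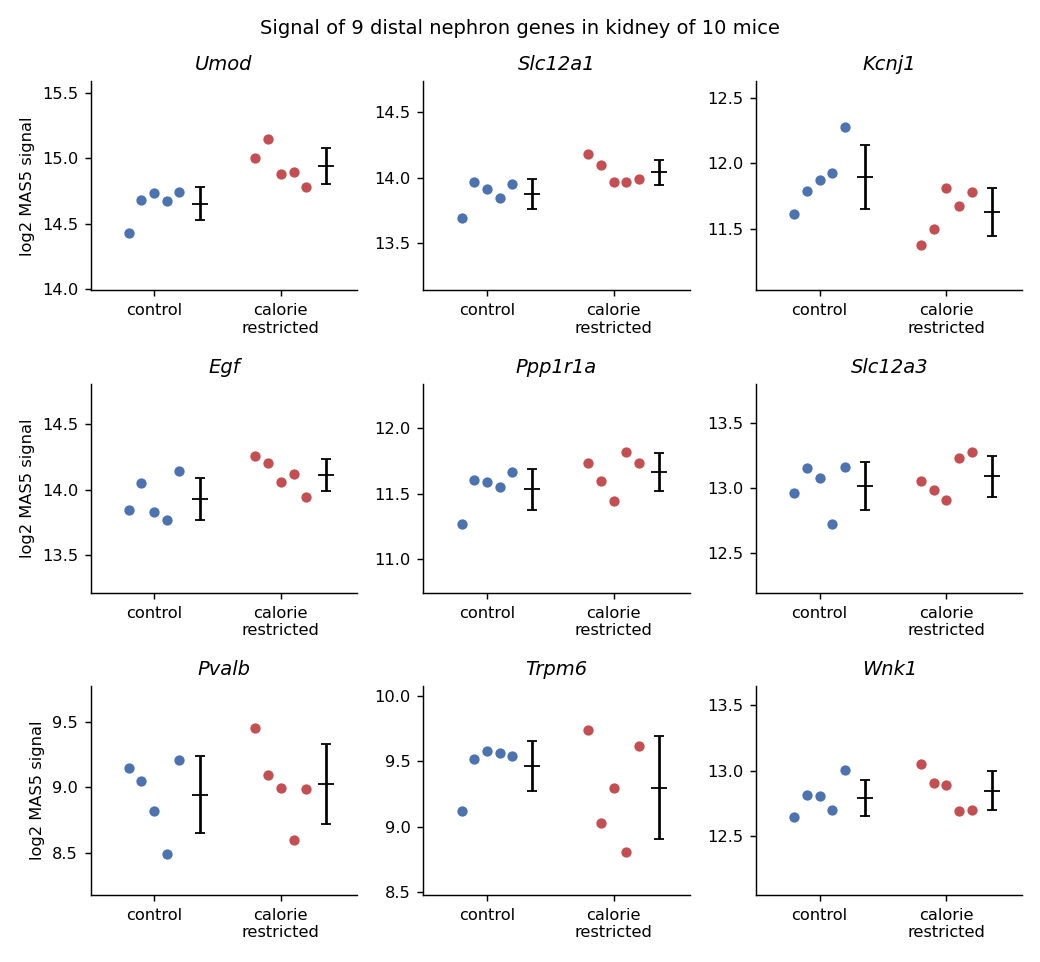
Each panel plots the log2 MAS5 signal of 1 gene (brightest probe set), 1 point per mouse in the order of replicates 1 to 5, with the mean and SD of the 5 mice beside them, on axes of equal span. Control and calorie-restricted values overlap in every panel except that of Umod, where the 5 calorie-restricted mice lie above the 5 controls.

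Umod encodes uromodulin, the most abundant protein of normal urine, which thick limb cells secrete. Its signal was 22090.2, 26239, 27292, 26146 and 27424 in the control mice and 32758, 36309.5, 30077, 30415 and 28150.3 in the calorie-restricted mice. The lowest calorie-restricted value thus stood just above the highest control, while such a lack of overlap was seen in 7.12% of all tested probe sets. The log2 difference was 0.29 ± 0.084 (limma standard error, n = 5 per group), a 1.22-fold ratio with a 95% interval of 1.08 to 1.38, and the adjusted p in limma was 0.0556. It passed with median centring (0.34, adjusted p in limma = 0.0368), and after quantile normalization the difference was -0.066 (adjusted p in limma = 0.421), within a range of 0.0300 to 0.570 over 23 alternatives. With the 3′ to 5′ ratio of each array added to the model as a covariate it was 0.15, and on arrays 4 and 5 of each group alone 0.13.

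A second Umod probe set, 1426252_a_at, read 16964.5 to 21025 in control and 20612.5 to 25470 in calorie-restricted kidney. On it 4 of 5 calorie-restricted mice lay above all controls, and the log2 difference was 0.24 ± 0.081 (limma adjusted p = 0.0883). Both probe sets therefore put calorie-restricted Umod higher by a like amount at the authors' scaling, without passing the threshold.

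Slc12a1 encodes NKCC2, the target of loop diuretics such as furosemide. Its signal was 13234, 15989, 15436, 14731 and 15856 in control and 18599, 17522, 16019, 15965 and 16249 in calorie-restricted mice. The groups overlapped through calorie-restricted mouse 4 and control mouse 2, whose values lay close together. Slc12a1 differed by 0.17 ± 0.077 on the log2 scale, with an interval of 0.00087 to 0.33 (limma adjusted p = 0.190), and -0.039 after quantile normalization. The other Slc12a1 probe set, 1421390_at, stayed at 59.0 to 194 on all arrays, below the filter on mean signal, and was not tested.

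Kcnj1 encodes ROMK, the potassium channel that returns potassium to the thick limb lumen so that NKCC2 can keep working. It read 3134, 3528, 3750.4, 3884 and 4967 in control and 2658, 2885, 3582, 3260.3 and 3515 in calorie-restricted mice. Calorie-restricted mice 1 and 2 lay below all controls and the other 3 within the control range. The log2 difference was -0.27 ± 0.13, with an interval of -0.54 to 0.00089 (limma adjusted p = 0.193). Unlike those of Umod and Slc12a1, it kept its sign under every alternative tried, from -0.17 without control replicate 5 to -0.62 as the mean of the gene's probe sets, and was -0.28 after quantile normalization.

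The second tested Kcnj1 probe set, 1418614_at, was dim, at 85.4 to 271 in control and 29.2 to 115 in calorie-restricted kidney. Its log2 difference of -0.98 ± 0.40 pointed the same way with a wide error (limma adjusted p = 0.138). Only 4 of its 10 values exceeded the median signal of their own array, so the size of this difference is uncertain.

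Egf encodes the precursor of epidermal growth factor, which the thick limb and distal convoluted tubule make in large amounts and shed into the urine. Its signal was 14728, 16953, 14541, 13952 and 18036.5 in control and 19544, 18832, 17024.5, 17798 and 15770.4 in calorie-restricted mice. Calorie-restricted mice 1 and 2 exceeded all controls, and mice 3, 4 and 5 lay within their range. Egf differed by 0.19 ± 0.089 on the log2 scale, with an interval of -0.0019 to 0.38 (limma adjusted p = 0.195), and it was -0.028 after quantile normalization.

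Ppp1r1a encodes inhibitor 1 of protein phosphatase 1, a phosphatase that takes phosphate off the cotransporters. It read 2460.3, 3108, 3083, 3001 and 3239 in control and 3415, 3100.3, 2778, 3610.3 and 3404 in calorie-restricted mice. Calorie-restricted mice 1, 4 and 5 were above all controls, and control mouse 1 was well below the rest. The log2 difference was 0.13 ± 0.10, with an interval of -0.089 to 0.35 (limma adjusted p = 0.442). It stayed above 0 under every alternative tried, from 0.064 without control replicate 1 to 0.19, and was 0.12 after quantile normalization.

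Slc12a3, the NCC cotransporter of the distal convoluted tubule, read 7988, 9127, 8655, 6761 and 9144 in control and 8484, 8085, 7698, 9601 and 9897 in calorie-restricted mice. Calorie-restricted mice 4 and 5 stood above all controls and mice 1 to 3 among them. Slc12a3 differed by 0.073 ± 0.10 on the log2 scale (limma adjusted p = 0.692), a 1.05-fold ratio with a 95% interval of 0.903 to 1.23. It was 0.26 with the 3′ to 5′ covariate, 0.31 on arrays 4 and 5 of each group alone and -0.016 after quantile normalization. Of these, the first 2 gave limma adjusted p-values of 0.352 and 0.350, so the call was the same. The other Slc12a3 probe set, 1446552_at, was listed at 5.15 to 122 in control and 7.02 to 14.0 in calorie-restricted kidney, near the bottom of the scale, and was not tested.

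Pvalb encodes parvalbumin, a calcium-binding protein of the early distal convoluted tubule. It read 567, 530.1, 452, 360.4 and 593 in control and 702, 546, 509.7, 387 and 507 in calorie-restricted mice, with calorie-restricted mouse 1 alone above the controls. The log2 difference was 0.080 ± 0.17, with an interval of -0.29 to 0.45 (limma adjusted p = 0.803). It was 0.13 after quantile normalization and -0.092 with the 3′ to 5′ covariate.

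Trpm6 encodes the channel through which magnesium enters distal convoluted tubule cells. Its brighter probe set, 1438877_at, read 555, 733, 763, 755 and 742 in control and 855, 522, 629, 448 and 784 in calorie-restricted mice. Here 2 calorie-restricted mice lay above and 2 below all controls, and the log2 difference was -0.16 ± 0.17 (limma adjusted p = 0.581). The dimmer probe set, 1427642_at, read 91.6 to 209 in control and 202 to 290 in calorie-restricted mice and pointed the other way, with a log2 difference of 0.53 ± 0.22 (limma adjusted p = 0.146). The 2 probe sets thus disagree in sign, and neither passed, so these arrays give no direction for Trpm6. As the mean of both the difference was 0.18.

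Wnk1 encodes a kinase of the WNK family whose kidney-specific short form is abundant in the distal convoluted tubule. Its brightest probe set, 1433676_at, read 6408, 7231, 7189, 6652 and 8212 in control and 8496, 7676, 7621, 6618 and 6677 in calorie-restricted mice. Only calorie-restricted mouse 1 lay above the controls, and the log2 difference was 0.054 ± 0.095, with an interval of -0.15 to 0.26 (limma adjusted p = 0.754). The dimmer 1436746_at read 349 to 780 in control and 649.9 to 1152 in calorie-restricted mice, a log2 difference of 0.55 ± 0.23 (limma adjusted p = 0.153). Which Wnk1 transcripts each probe set binds is not given in the sources used here. The faintest, 1437888_at, lay at 5.31 to 98.2 on all arrays and was not tested.

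**Figure D2:**
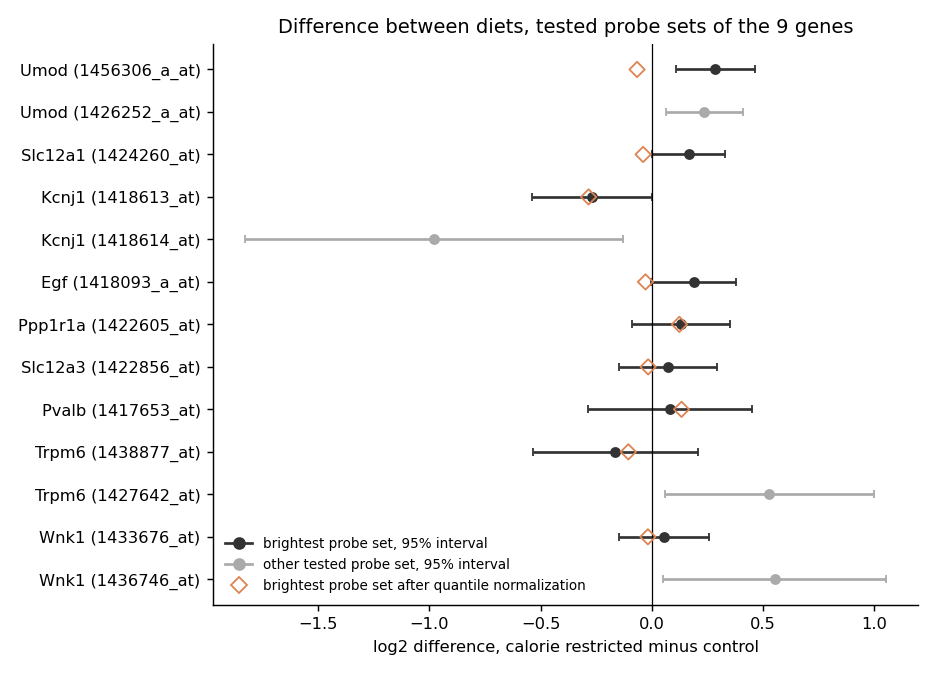
Points give the log2 difference, calorie restricted minus control, for the 13 tested probe sets of the 9 genes with their 95% intervals, and open diamonds the value of each gene's brightest probe set after quantile normalization. Umod, Slc12a1 and Egf move from above to slightly below 0 after quantile normalization, while Kcnj1 stays at -0.27 and -0.28.

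The 5 members with the highest signals had differences in the order of their brightness, and the other 4 did not follow it. Umod, Egf and Slc12a1, which had the 3 highest mean log2 signals of the 9 genes, had differences of 0.29, 0.19 and 0.17. Slc12a3 and Wnk1, which came next, had 0.073 and 0.054. Below them in brightness, Kcnj1 had -0.27, Ppp1r1a 0.13, Trpm6 -0.16 and Pvalb 0.080.

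**Figure D3:**
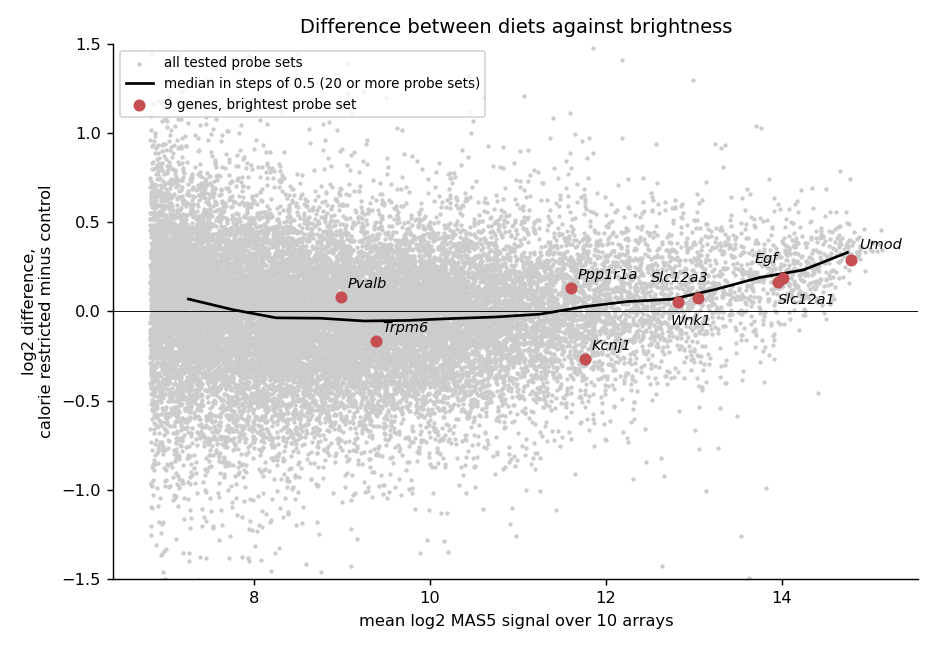
The log2 difference between the diets is plotted against the mean log2 signal over 10 arrays, with grey points for the 22519 tested probe sets (48 lie outside the axis, beyond 1.5 in size), a black line for their median in steps of brightness and red points for the 9 genes. The line bends upward at the bright end, where Umod, Egf and Slc12a1 lie close to it, and Kcnj1 lies below it.

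Ratios within an array do not change when all its signals are multiplied by 1 factor. Those of Slc12a3 to Slc12a1 and of Umod to Slc12a1 were therefore compared. A shift that depends on brightness, as described above, is not removed by a ratio, since Umod, Slc12a1 and Slc12a3 differ in brightness. The log2 ratio of Slc12a3 to Slc12a1 was -0.73, -0.81, -0.83, -1.12 and -0.79 in control and -1.13, -1.12, -1.06, -0.73 and -0.72 in calorie-restricted mice. The values fell at 2 levels, and each diet had mice at both. The difference was -0.093 (two-sided exact permutation p = 0.5, also after adjustment over the 2 ratios). Its sign turned after quantile normalization, which changes signals by rank (0.023), and on replicates 4 and 5 alone (0.23).

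The log2 ratio of Umod to Slc12a1 was 0.74, 0.71, 0.82, 0.83 and 0.79 in control and 0.82, 1.05, 0.91, 0.93 and 0.79 in calorie-restricted mice. Calorie-restricted mice 2, 3 and 4 were above all controls and mice 1 and 5 among them. The difference of 0.12 did not pass (two-sided exact permutation p = 0.0635, adjusted over the 2 ratios 0.127). It had an unadjusted exact permutation p of 0.0238 with the mean of each gene's tested probe sets (0.096), and was -0.027 after quantile normalization. The smallest p that 5 against 5 mice allow is 0.00794.

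**Figure D4:**
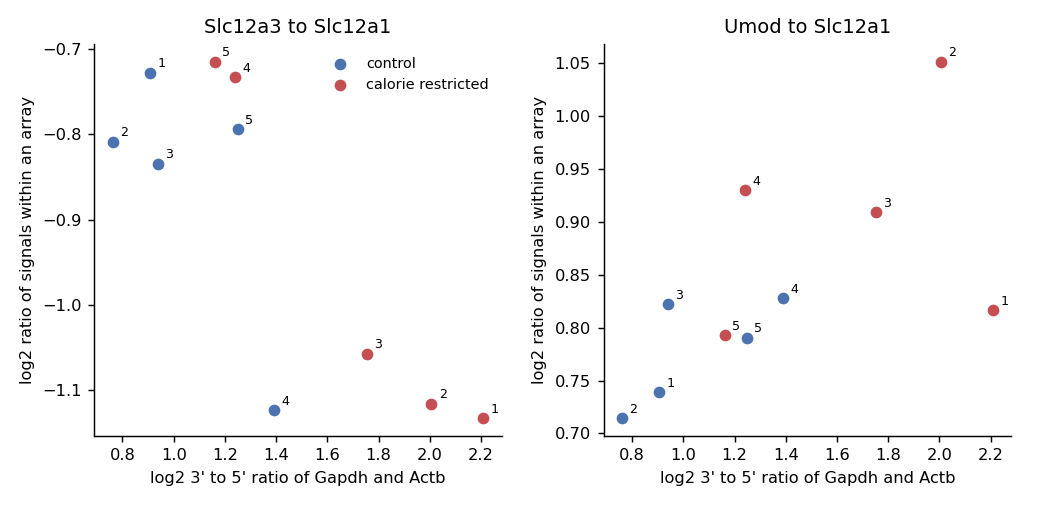
The log2 ratio of signals within an array, of Slc12a3 to Slc12a1 and of Umod to Slc12a1, is plotted against the log2 3′ to 5′ ratio of that array, 1 numbered point per mouse. The 4 arrays with the highest 3′ to 5′ ratios, calorie-restricted mice 1, 2 and 3 and control mouse 4, have the 4 lowest ratios of Slc12a3 to Slc12a1, between -1.13 and -1.06.

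A further 58 genes of the same segments and their control were listed, of which 52 had a single-symbol probe set and 47 were tested. Of the 47, each taken by its brightest probe set, 4 (8.51%) were higher in calorie restriction and none lower in limma. Over all tested probe sets, a unlike unit since a gene can have several, 2.93% were higher and 3.16% lower. An unadjusted p under 0.05 was found for 13 of 47 genes and 26.1% of all tested probe sets. The groups did not overlap for 5 of the 47, and for 7.12% of all tested probe sets. After quantile normalization 2 of the 47 were higher and 1 lower, and with array weights 4 were higher and 2 lower. The median log2 difference of the 47 was 0.080 at the authors' scaling. The 4 were Fxyd2, Atp1b1, Atp2b1 and Egfr, none of which is confined to the thick limb or distal convoluted tubule.

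Thick limb transport genes and sodium pump subunits had 2 of 9 tested members higher and a median of 0.18. They were the pump's gamma subunit Fxyd2 and its beta subunit Atp1b1. Mean Fxyd2 signal was 24648 ± 1962 in control and 31216 ± 2823 in calorie-restricted mice (SD, n = 5). It rose by 0.34 ± 0.080 on the log2 scale (limma adjusted p = 0.0307), and the 5 calorie-restricted mice lay above all controls. Atp1b1 rose from 21127 ± 866 to 26049 ± 2291, a difference of 0.30 ± 0.073 (limma adjusted p = 0.0334), also without overlap. Like Umod, both lie at the bright end, and after quantile normalization their differences were -0.0021 and 0.0082, far from the threshold. Of the other probe sets, 2 of 3 for Fxyd2 and 2 of 4 for Atp1b1 passed with the same sign, while the remaining Fxyd2 probe set differed by -0.67 ± 0.28 (limma adjusted p = 0.141). The claudin Cldn16, a magnesium and calcium pore and marker of the thick limb, differed by -0.18 ± 0.20 (limma adjusted p = 0.608). Cldn10, another claudin of this list, was named after its values were seen and read 4988 to 6899 in control mice. In calorie-restricted mice it read 3778, 3647, 4207, 5934 and 5515 (-0.39 ± 0.15, limma adjusted p = 0.112). Calorie-restricted mice 4 and 5 thus lay within the control range. Casr, also of this list and named after its values were seen, differed in the other direction (0.28 ± 0.11, limma adjusted p = 0.125).

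Genes of the distal calcium, magnesium and potassium pathways had 2 of 13 tested members higher and a median of -0.080. The calcium pump Atp2b1 rose from 798 ± 127 to 1106 ± 136, a log2 difference of 0.48 ± 0.13 (limma adjusted p = 0.0459). Egfr, the receptor for the product of Egf, rose from 887 ± 125 to 1217 ± 117, a difference of 0.46 ± 0.12 (limma adjusted p = 0.0409), without overlap. Both passed after quantile normalization as well (0.53 and 0.52). But the other tested probe sets, 2 for Atp2b1 and 4 for Egfr, had differences between -0.10 and 0.18 and none passed, and as means over probe sets neither gene passed (0.21 and 0.088).

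Other members of this list are named after their values were seen. Kcnj16, a subunit of the basolateral potassium channel of these segments, read 5500.2 to 6436 in control and 4990 to 5368 in calorie-restricted mice, without overlap (-0.24 ± 0.075, limma adjusted p = 0.0696). Trpm7, the channel relative of Trpm6 found in most cells, read 3038 to 4303 in control and 2090.5 to 2976 in calorie-restricted mice, also without overlap (-0.38 ± 0.12, limma adjusted p = 0.0740). Of all tested probe sets 7.12% had no overlap. Over the alternatives the difference ran from -0.30 to -0.12 for Kcnj16 and from -0.42 to -0.20 for Trpm7. Both passed with array weights (-0.25 and -0.40, limma adjusted p = 0.0486 and 0.0489), and Kcnj16 passed after quantile normalization (-0.30, limma adjusted p = 0.0413), within ranges over 23 alternatives of 0.0413 to 0.641 for Kcnj16 and 0.0489 to 0.528 for Trpm7. Kl and Slc41a3, like Kcnj16 and Trpm7, passed at an adjusted p threshold of 0.10 but were higher in calorie restriction. Kl read 1945 to 3837 in control and 3428 to 4104 in calorie-restricted mice (0.46 ± 0.15, limma adjusted p = 0.0684). Slc41a3 read 438 to 563 in control and 556 to 989 in calorie-restricted mice (0.47 ± 0.15, limma adjusted p = 0.0753). For each of them the groups overlapped. The calcium-binding protein Calb1 of the late distal convoluted and connecting tubule differed by -0.19 ± 0.24 (limma adjusted p = 0.645).

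Of the WNK pathway, 0 of 11 tested genes passed in limma, 1 had an unadjusted p under 0.05, and the median was -0.052. The smallest p-values were those of Wnk2, with signals of 89.1 to 131 in control and 92.6 to 230.5 in calorie-restricted mice (0.58 ± 0.25, limma adjusted p = 0.165), and of Stk39, which encodes SPAK (-0.43 ± 0.20, limma adjusted p = 0.199). A second Stk39 probe set differed by 0.31 ± 0.17 in the other direction. Wnk2 lay near the array median, so the size of its difference is uncertain.

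Of genes for transcription factors and other markers of segment identity, 0 of 12 tested passed in limma, and 2 had an unadjusted p under 0.05. The 12 differences, given at the authors' scaling only, lay between 0.016 and 0.43 with a median of 0.17. The smallest p-values were those of Pcbd1, a cofactor of the HNF1 factors (0.24 ± 0.10, limma adjusted p = 0.169), and of the nuclear receptor Esrrb (0.43 ± 0.19, limma adjusted p = 0.180). After quantile normalization Pcbd1 was 0.093 and Esrrb 0.49. Esrrb was -0.052 with the 3′ to 5′ covariate. Of the macula densa genes, 0 of 2 tested passed in limma, and none had an unadjusted p under 0.05. The nitric oxide synthase Nos1 differed by 0.23 ± 0.17 (limma adjusted p = 0.410) and the protease Pappa2 by -0.16 ± 0.25 (limma adjusted p = 0.717).

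**Figure D5:**
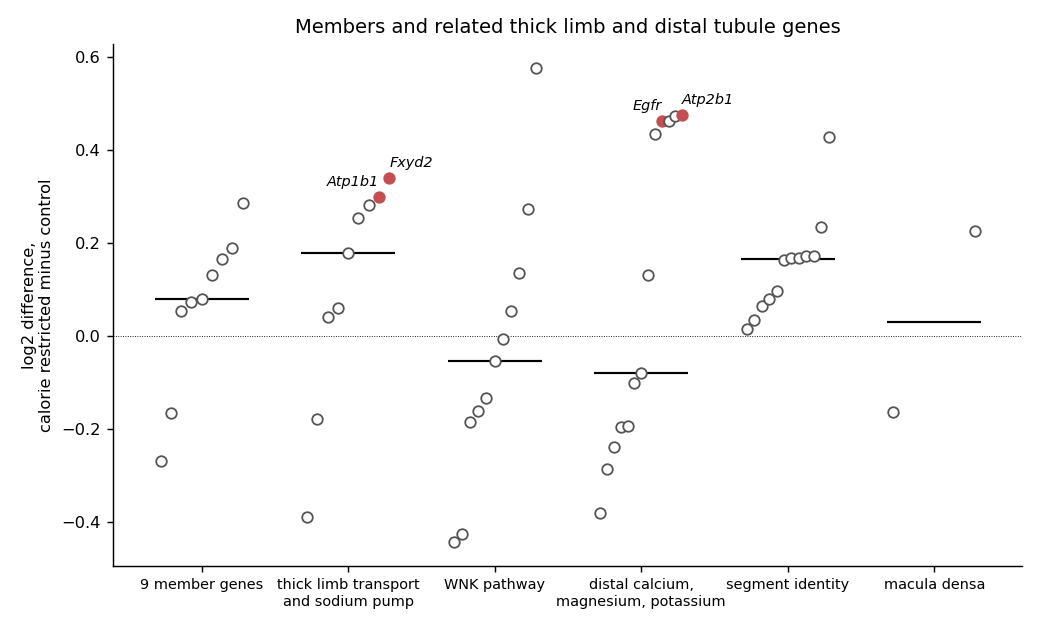
Each circle is the log2 difference, calorie restricted minus control, of 1 gene by its brightest probe set, for the 9 members and 5 lists of related genes, with bars at the medians and filled circles for genes past the adjusted p of 0.05. The 4 filled circles are Fxyd2, Atp1b1, Egfr and Atp2b1, and the 9 members are all open.

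The number of calls among these related genes changed with the arrays used, more than the differences did. Of the 47 tested, 0 passed without control replicate 2 or without calorie-restricted replicate 1, 2 or 3, 1 passed without control replicate 3, 4 or 5, 4 passed without control replicate 1 or calorie-restricted replicate 5, and 7 passed without calorie-restricted replicate 4. Without control replicate 2, for example, Fxyd2 differed by 0.35 and Egfr by 0.50, as large as with all arrays, while calls over all probe sets went from 1371 to 125. In the fit with the 3′ to 5′ covariate 0 of the 47 and 9 of all probe sets passed. There the differences were 0.33 for Fxyd2 and 0.45 for Egfr, close to those without it, and 0.23 for Atp1b1 and 0.26 for Atp2b1. Umod passed without calorie-restricted replicate 5 (0.33, limma adjusted p = 0.0300).

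Genes whose deviations from the means of the 2 diets were most like those of Umod over the 10 arrays were sought among 12195 other tested genes. The 4 closest were the mitochondrial ATP synthase subunit Atp5g3 (Pearson r = 0.98), the ribosomal protein genes Rpl38 (0.96) and Rpl37a (0.96) and the translationally controlled protein gene Tpt1 (0.95). Among the other members r with Umod was 0.80 for Slc12a1, 0.66 for Wnk1, 0.56 for Egf and 0.40 for Ppp1r1a, and -0.12 for Slc12a3. For Slc12a3 the 4 closest were Bcar3 (0.97), Wdr41 (0.95), Atp4a (0.94) and Ubxn10 (0.94), and the closest other member was Ppp1r1a (0.57). These values describe 10 arrays that share each array's scaling and labelling, and the closest genes were picked as the highest of many.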

How the data were processed

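Total RNA (Trizol) of 10 kidneys, 1 mouse per array, was labelled from 5 ug per the labels' protocols. Per the submitters' processing notes, the authors made MAS5 signals with Affymetrix Expression Console (no version given), and each deposited value is such a linear intensity. Averaged per array after trimming 2% at either end, the deposited intensity was 500.003, so arrays share a scale but not a distribution. Detection calls were not used here, and the number of arrays limits the precision.

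Signals below 1 were set to 1 (0 of them among tested probe sets) and log2 was taken. Of 45101 probe sets, 64 Affymetrix controls were left out, and those with a mean log2 signal at or above the median, 6.81, were tested (22519, for 12196 named genes). The diets were compared in limma 3.58.1 under R 4.3.3 (lmFit, eBayes with intensity trend, two-sided), as calorie restricted minus control, adjusted by Benjamini-Hochberg over all tested probe sets. The code was tested on simulated data. Each gene is represented by its brightest probe set. The ratios within arrays and the 3′ to 5′ ratio were compared with two-sided exact permutation tests. Named genes were all members, in each list up to 4 of those past the threshold by smallest p or else up to 2 by smallest p, and the 4 genes most like Umod and Slc12a3. Cldn16 and Calb1 are named as segment markers, and Cldn10, Casr, Kcnj16, Trpm7, Kl and Slc41a3 were chosen after their values were seen. The members and lists were chosen with earlier results of these data known. Alternatives were other scalings, filters, an offset of 50, other limma settings, a block for the replicate number, leaving out each array, a 3′ to 5′ covariate, replicates 4 and 5 alone and means over probe sets.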

Additional observations from a re-analysis of the deposited data

Results flagged for a closer look

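In 7 of 66 groups of 5 mice examined, 1 mouse stood apart from the other 4. Its gap to the nearest of them took up more than 0.71 of the whole range, both taken on the log2 scale. Signals below are printed on the linear scale, and the gaps beside them are those of their log2 values. Chance gives about 1 in 20 such groups if groups are independent. These groups share the same 10 mice, so their count cannot be set against that rate. In 3 of the 7 it was control mouse 1, at the low end. It had 22090.2 for Umod against 26146 to 27424 in the other controls (gap 0.779 of the range), 2460.3 for Ppp1r1a against 3001 to 3239 (0.722), and 555 for Trpm6 (1438877_at) against 733 to 763 (0.876). Without this mouse the log2 difference was 0.23 for Umod, 0.064 for Ppp1r1a and -0.25 for Trpm6, and in limma none of them passed the threshold. The log2 ratio of Slc12a3 to Slc12a1 was -1.12 in control mouse 4 against -0.83 to -0.73 in the other controls (0.731), and without that mouse the difference between the diets was -0.16 (exact permutation p = 0.175). Among calorie-restricted mice, the Wnk1 probe set 1436746_at read 1152 in mouse 3 against 649.9 to 728 (0.802). The dim Kcnj1 probe set 1418614_at read 29.2 in mouse 3 against 95.1 to 115 (0.861), and the faint Wnk1 probe set 1437888_at 7.49 in mouse 4 against 58.6 to 79.1 (0.872). No cause was tested for any of these.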

How the results depend on the processing

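The count of members past the threshold, 0, was 1 (Umod) with median centring, the stricter filter, array weights, an adjusted p threshold of 0.10 and, among single arrays left out, without calorie-restricted replicate 5 (range 0 to 1), and 0 under the other alternatives. The 47 related genes, with 4 past the threshold, gave 8 at the threshold of 0.10, 0 to 7 with 1 array left out, and 0 without the filter, without the intensity trend, with the replicate block, with the 3′ to 5′ covariate (also with quantile normalization), on replicates 4 and 5 alone and as means over probe sets. All probe sets past the threshold, 1371, were 751 after quantile normalization, 287 without the filter, 243 without the intensity trend, 2292 with array weights, 3246 at 0.10, 9 with the covariate, 5 with the covariate and quantile normalization, 198 on replicates 4 and 5 alone, and 125 to 2481 with 1 array left out (lowest for control replicate 2, highest for calorie-restricted replicate 5).

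Nothing in the labels says whether replicate numbers pair the mice. Deviations of same-numbered mice correlated at -0.14 to -0.087, and 0 of 5 controls correlated best with their own number. The 3′ to 5′ ratio was highest in mice 4 and 5 among controls (1.39 and 1.25) and lowest in mice 4 and 5 among calorie-restricted mice (1.24 and 1.16). These correlations therefore cannot decide whether mice were paired. With the replicate block 127 probe sets passed, 0 of them members.

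Signs turned as follows. After quantile normalization the log2 differences were -0.066 for Umod, -0.039 for Slc12a1, -0.028 for Egf, -0.016 for Slc12a3, -0.017 for Wnk1 and -0.0021 for Fxyd2, and the ratios of Slc12a3 and of Umod to Slc12a1 differed by 0.023 and -0.027. With the covariate as well they were -0.093 for Umod, -0.068 for Slc12a1, -0.060 for Egf, -0.056 for Pvalb, -0.17 for Wnk1 and -0.0043 for Esrrb. With the covariate alone Pvalb was -0.092, Wnk1 -0.11 and Esrrb -0.052. On replicates 4 and 5 alone Pvalb was -0.061, Wnk1 -0.15, Esrrb -0.20 and the ratio of Slc12a3 to Slc12a1 0.23 (exact permutation p = 0.333, the smallest 2 against 2 allow). Without control replicate 4, Slc12a3 was -0.00068 and Pvalb -0.032, and without calorie-restricted replicate 1 Pvalb was -0.027, with up to 0.12 for Slc12a3 and 0.19 for Pvalb when another array was left out. As the mean of its probe sets Trpm6 was 0.18. The cause was not tested. The ratio of Umod to Slc12a1 had an exact permutation p of 0.0238 as means over probe sets (0.096) and a difference of 0.083 to 0.15 with 1 array left out. With 1 array left out its unadjusted exact permutation p was 0.0238 to 0.119. It was under 0.05 without calorie-restricted replicate 1 (0.0317) or 5 (0.0238). The 3′ to 5′ ratio differed by 0.49 to 0.75 with 1 array left out, and its exact permutation p was 0.0397 to 0.0794.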

Other observations

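The log2 ratio of Slc12a3 to Slc12a1 was -1.13, -1.12, -1.06 and -1.12 on the 4 arrays with the highest 3′ to 5′ ratios (calorie-restricted mice 1, 2 and 3 and control mouse 4, at 2.21, 2.01, 1.75 and 1.39) and -0.83 to -0.72 on the other 6 (at 0.76 to 1.25). This split of the arrays was seen after the values were computed and was not tested.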
